A study of Mus musculus with 6 samples.

Results

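The genes described here code for the proteins that recognise, bind and cut out introns, together with a broader family of RNA-binding proteins. They were taken by name: every gene of the count table whose symbol begins with Srsf, Hnrnp, Sf3a, Sf3b, Snrp, Prpf, U2af or with Rbm followed by a digit or an x. This rule found 110 of 15212 genes, of which 11 were Srsf, 22 Hnrnp, 9 Sf3, 13 Snrp, 13 Prpf, 3 U2af and 39 Rbm genes. The name is a rule about symbols and not about function, so 6 of the 110 were pseudogenes or antisense genes (Hnrnpa1l2-ps, Hnrnpa1l2-ps2, Srsf3-ps, Rbm3-ps, Snrpert and Rbm3os) and several Rbm proteins work outside the spliceosome. After genes with few counts were set aside, 107 were tested. The untested ones were Rbm11, Hnrnpa1l2-ps and Hnrnpa1l2-ps2.

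RNA was measured in group 2 innate lymphoid cells (ILC2s), lymphocytes without antigen receptors that make type 2 cytokines when epithelial alarmins such as IL-33 reach them. There were 3 bulk RNA-Seq libraries of Vsir-/- ILC2s and 3 of wild-type (WT) ILC2s, and the question was what is altered in activated ILC2s that lack VISTA, the inhibitory checkpoint receptor encoded by Vsir. All mice carried the label BALB/c and had received 0.5 µg rmIL-33 through the nose on each of 3 days, with cells taken from the lung on day 4. The Vsir-/- line, B6N.129S5(B6)-Vsirtm1Lex, lacks the gene in every cell and was used on a BALB/c background, and per the study's methods the mice were 5 to 8 weeks old and sex-matched. WT mice were BALB/cByJ. Each library started from 10 pg of RNA. The labels call the cells freshly isolated in one field and cultured in another, and they do not say whether libraries came from separate mice, so p-values measure the spread between libraries, which may be technical.

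An intron is removed by the spliceosome, which is built anew on each one from small nuclear ribonucleoproteins (snRNPs). The U1 snRNP marks the 5′ splice site, U2AF and then the U2 snRNP with its SF3A and SF3B subunits mark the 3′ splice site and the branch point, and the U4/U6.U5 tri-snRNP brings in the parts that form the catalytic centre. SR proteins (Srsf) mostly favour the use of the exons they bind, hnRNP proteins often oppose it, and many RBM proteins adjust the choice. Lymphocytes alter these choices when they are activated, as in the exons of the phosphatase CD45.

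Each library held between 15680892 and 29197999 counts, with WT replicate 2 the deepest. Vsir had 0, 2 and 0 counts in the Vsir-/- libraries, against 109, 185 and 126 in the WT libraries. All 14 ILC2 markers examined were detected, 5 of them higher and 6 lower in Vsir-/- cells, and they summed to 25196 to 27696 CPM in Vsir-/- and 16869 to 17377 CPM in WT libraries, where CPM are counts scaled to library size with TMM factors. Among them the cytokine gene Il5 was at 13798 to 17102 CPM in Vsir-/- and 7610 to 8676 CPM in WT cells, and the transcription factor gene Gata3 at 734 to 842 CPM in Vsir-/- and 1289 to 1473 CPM in WT cells. Other marker sums differed by genotype: the 5 T cell genes present summed to 74.0 to 91.9 CPM in Vsir-/- and 163 to 197 CPM in WT libraries (4 of 4 tested lower, Trac at 0 to 0.175 CPM), the 7 myeloid genes to 10.6 to 12.0 CPM in Vsir-/- and 16.1 to 24.3 CPM in WT, and the 5 epithelial genes to 4.82 to 5.60 CPM in Vsir-/- and 21.9 to 22.2 CPM in WT libraries. Most of the epithelial sum was Epcam, at 4.05 to 5.41 CPM in Vsir-/- and 19.4 to 21.8 CPM in WT libraries. Pecam1, an endothelial gene, was higher, at 48.3 to 53.8 CPM in Vsir-/- and 35.6 to 41.1 CPM in WT libraries. The sum of the 2 genes of eosinophils, mast cells and basophils was 2.95 to 5.73 CPM in Vsir-/- and 1.69 to 2.74 CPM in WT libraries. These 2 genes went opposite ways, with Mcpt8 higher (log2 fold change 2.40) and Cpa3 lower (-5.49) in Vsir-/- cells. The B cell sums (10.9 to 14.9 CPM in Vsir-/-, 11.1 to 17.4 CPM in WT) and NK cell sums (1.82 to 3.30 CPM in Vsir-/-, 2.18 to 3.26 CPM in WT) overlapped. Immediate early genes, which respond to stimulation and to handling, summed to 1264 to 1529 CPM in Vsir-/- and 626 to 689 CPM in WT libraries, with 6 of 11 higher and 1 lower. Their part in the results below was not tested. In bulk RNA, fewer cells of a type and less RNA per cell cannot be told apart.

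Splicing genes were more often higher than lower in Vsir-/- ILC2s, and by small amounts. Of the 107 tested members, 31 rose and 4 fell in Vsir-/- cells at an adjusted p under 0.05 (edgeR quasi-likelihood test, Benjamini-Hochberg adjustment over 13166 genes), which is 29.0% and 3.74%, where 18.9% of all tested genes rose and 20.1% fell. The median log2 fold change of the members was 0.14, against -0.01 over all tested genes, and 73.8% of the members and 48.9% of all genes had a value above 0. The 3 Vsir-/- libraries lay above all WT libraries for 39 members and below them for 6, where 23.6% and 25.8% of all genes did so and 49.4% did either. A difference of over 1.5-fold was rare: 6 members passed the test with one, Hnrnpa1, Rbm17, Rbm19 and Prpf40b higher and Rbm43 and Rbm47 lower in Vsir-/- cells, against 22.4% of all genes.

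Summed over the 110 genes, the families took 21164, 21256 and 21625 CPM in the Vsir-/- libraries, against 18743, 18992 and 18845 CPM in the WT libraries. Every Vsir-/- sum exceeded every WT sum. The count of higher calls depended on single libraries. Without WT replicate 1 it was 12 of 108 members (11.1%), where 13.4% of all genes were higher, and in the other 5 fits with a library left out it lay between 21 and 33. It was 12 (11.01%, against 12.5% of all genes) when replicates 1 and 2 of each genotype, which share a label number, were summed to 1 library. It was 6 (5.56%, against 8.62% of all genes) when only libraries without the label suffix S0 were used, which leaves 1 WT library. In these 3 fits the share of members that rose was below that of all genes. The count of lower calls was 2 without Vsir-/- replicate 2.

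**Figure D1:**
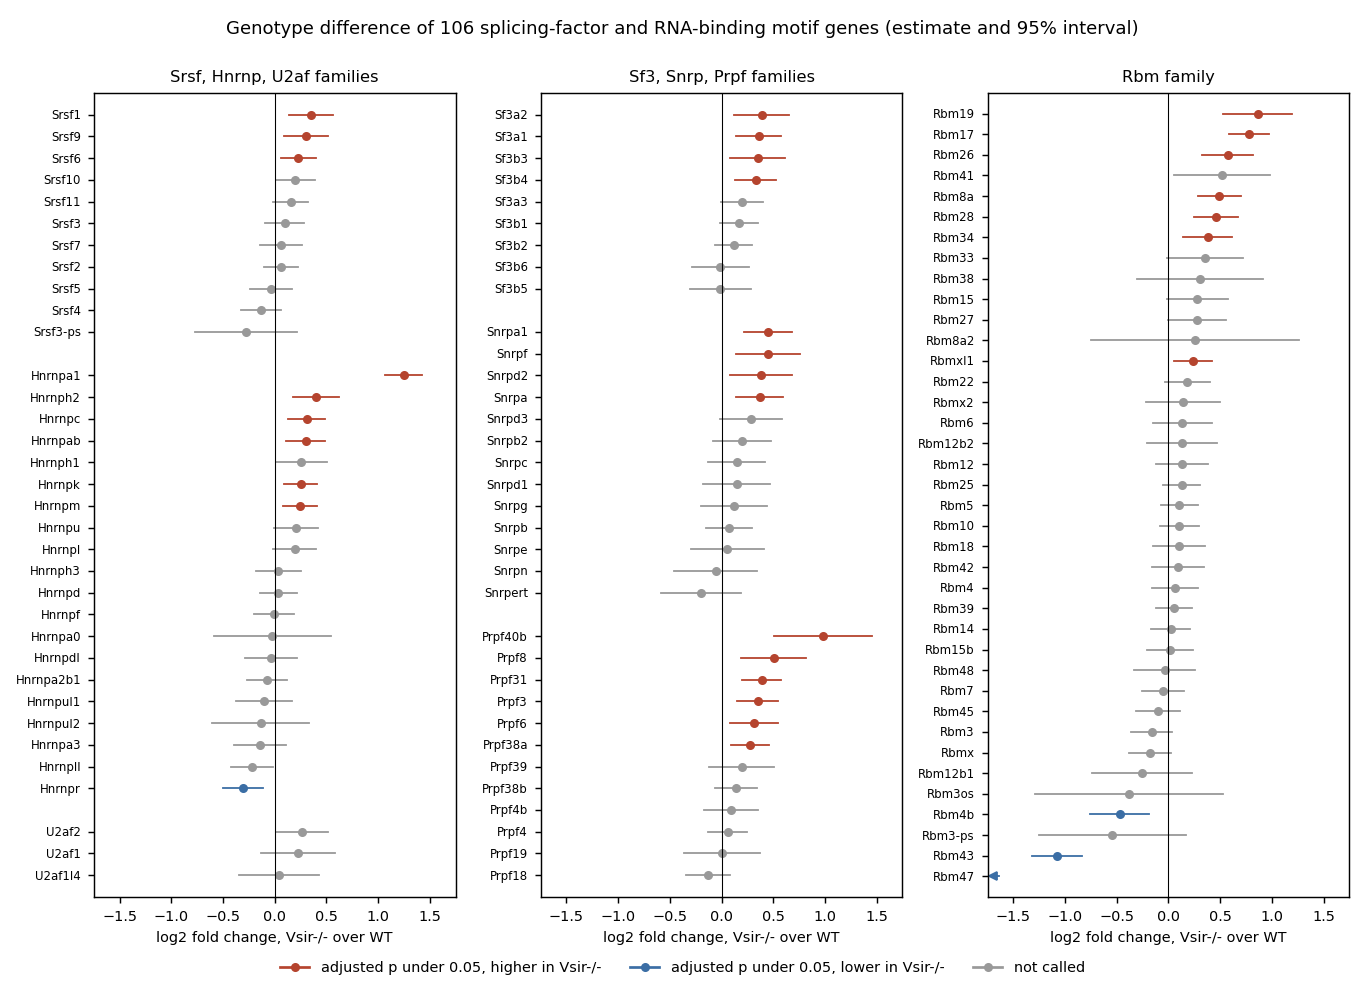
Log2 fold change of Vsir-/- over WT with its 95% confidence interval for 106 of the 107 tested members, ordered within families; red and blue mark genes past an adjusted p of 0.05. Most points lie to the right of 0 and close to it, Hnrnpa1 stands apart at 1.25, and the triangle marks Rbm47, which lies off the axis at -3.21.

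Hnrnpa1 had the largest increase of all members. Its protein binds exonic and intronic silencer sequences, represses nearby splice sites and shuttles between nucleus and cytoplasm. It had 763, 752 and 788 CPM in the Vsir-/- libraries, against 316, 305 and 349 CPM in the WT libraries. All 3 Vsir-/- libraries lay far above the WT libraries. The log2 fold change was 1.25 (95% confidence interval 1.06 to 1.43, adjusted p = 1.76e-06), and the adjusted p stayed between 6.38e-06 and 3.33e-05 with any library left out.

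The nearest relatives of Hnrnpa1 did not pass the test. Hnrnpa2b1 had 1114, 1121 and 1290 CPM in Vsir-/- and 1257, 1286 and 1173 CPM in WT libraries (log2 fold change -0.08, adjusted p = 0.523), and the genotypes overlapped. Hnrnpa3 gave -0.14 (adjusted p = 0.365) and Hnrnpa0 -0.02 (adjusted p = 0.957). The ratio of Hnrnpa1 to Hnrnpa2b1 CPM was therefore 0.685, 0.670 and 0.611 in Vsir-/- libraries, against 0.251, 0.238 and 0.297 in WT libraries. Per kilobase of transcript, Hnrnpa1 was number 5 of 103 members in Vsir-/- cells at 400.1 CPM per kilobase and was number 11 in WT cells at 169, next to Rbm3 (170 in Vsir-/- and 190.0 in WT cells). Hnrnpa2b1 led this order in Vsir-/- and in WT cells, at 707 and 745 CPM per kilobase.

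Shared sequence and neighbouring genes are described next, and their part in the Hnrnpa1 count was not tested. Hnrnpa1 has processed copies in the genome, and 28.2% of the 50-base windows of its transcripts also occur in transcripts of 20 other annotated genes, chiefly Gm10052, Gm7729 and Gm5643. How reads with several matches were divided is not given in the sources used here. Gm10052 had 181, 213 and 244 counts in Vsir-/- and 105, 135 and 122 counts in WT libraries (log2 fold change 1.13, adjusted p = 0.00077), which is small beside the 11877, 12363 and 12654 counts of Hnrnpa1 in Vsir-/- and 5048, 8821 and 5987 in WT libraries. Gm7729 (1.63, adjusted p = 0.00488) and Gm5643 (0.81, adjusted p = 0.108) had fewer counts than Gm10052. Hnrnpa1 lies on chromosome 15 (chr15:103240432-103246692, plus strand, GRCm38), head to head with Cbx5 (chr15:103191544-103239816, minus strand), the gene of heterochromatin protein HP1 alpha. Cbx5 had 123, 107 and 93.2 CPM in Vsir-/- and 120, 101 and 123 CPM in WT libraries (log2 fold change -0.09, adjusted p = 0.581), so the genotypes overlapped there. Of the 5 tested genes within 0.2 Mb of Hnrnpa1, Zfp385a (1.08, adjusted p = 0.00586), Itga5 (0.49, adjusted p = 0.0147) and Copz1 (0.26, adjusted p = 0.0296) also rose, where 18.9% of all tested genes did. Smug1 did not pass (0.17, adjusted p = 0.494). A shared change over this region was not tested.

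Promoter windows of Hnrnpa1, Rbm17, Rbm19 and Rbm43 are printed, each at a RefSeq start site. These genes changed by over 1.5-fold, as did Prpf40b and Rbm47, whose windows are not printed. The windows used are RefSeq windows of 300 bases around the start site, on GRCm38.p6 and on the gene's strand. Several short motifs were searched on both strands, and capitals mark their matches as they read on the printed strand. They were the CCAAT box (CCAAT), the E box (CACGTG), the ETS site (CCGGAAG), the palindromic NRF1 site, the cyclic AMP response element (CRE, TGACGTCA) and the YY1 site (AANATGGC). The Hnrnpa1 window (chr15:103240147-103240446, plus strand) has 4 CCAAT boxes, the Rbm17 window (chr2:11603150-11603449, minus strand) has 1, the Rbm19 window (chr5:120116263-120116562, plus strand) has an E box, an ETS site and a YY1 site, and the Rbm43 window printed (chr2:51934595-51934894, minus strand) has an E box and an ETS site. Another Rbm43 window (chr2:51935114-51935413, minus strand), which is not printed, has 2 CCAAT boxes and neither of those motifs. By GENCODE bounds Rbm17 begins at chr2:11604153 and Rbm43 at chr2:51935163, so the printed windows of these genes lie inside them and miss those starts. The Rbm43 start falls in the window not printed.
Hnrnpa1: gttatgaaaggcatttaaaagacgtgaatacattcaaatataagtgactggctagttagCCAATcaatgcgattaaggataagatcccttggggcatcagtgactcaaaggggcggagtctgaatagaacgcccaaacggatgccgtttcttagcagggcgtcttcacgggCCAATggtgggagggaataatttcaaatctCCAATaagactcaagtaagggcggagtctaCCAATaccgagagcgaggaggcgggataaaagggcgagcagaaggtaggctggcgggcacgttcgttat
Rbm17: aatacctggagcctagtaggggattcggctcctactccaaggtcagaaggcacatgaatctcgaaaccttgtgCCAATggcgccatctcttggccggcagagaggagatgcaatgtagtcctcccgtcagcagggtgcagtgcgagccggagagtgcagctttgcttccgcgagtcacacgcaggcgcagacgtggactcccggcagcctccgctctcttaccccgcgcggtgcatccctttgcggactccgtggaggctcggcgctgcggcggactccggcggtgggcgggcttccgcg
Rbm19: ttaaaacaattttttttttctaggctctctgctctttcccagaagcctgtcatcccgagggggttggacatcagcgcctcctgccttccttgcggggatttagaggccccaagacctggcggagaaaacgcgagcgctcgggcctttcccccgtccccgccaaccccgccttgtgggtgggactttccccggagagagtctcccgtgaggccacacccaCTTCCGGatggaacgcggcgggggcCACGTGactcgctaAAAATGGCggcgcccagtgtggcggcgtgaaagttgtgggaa
Rbm43: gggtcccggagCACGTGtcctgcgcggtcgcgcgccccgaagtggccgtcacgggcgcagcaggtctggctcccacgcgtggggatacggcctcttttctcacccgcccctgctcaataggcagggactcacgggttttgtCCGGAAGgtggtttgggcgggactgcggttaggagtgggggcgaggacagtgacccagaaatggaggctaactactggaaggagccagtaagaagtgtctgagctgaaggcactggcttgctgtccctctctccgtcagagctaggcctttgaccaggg

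Windows were matched for 88 of the 107 tested members. A CCAAT box stood in 54 of their 115 windows (47.0%), against 37.4% of all 32851 windows of the table and 38.1% of the windows of tested genes. An E box stood in 13.0% of the members' windows, 10.2% of those of tested genes and 7.15% of all windows. Of the members that rose, 6 of 28 with a window held an E box (Hnrnph2, Hnrnpm, Prpf3, Prpf40b, Rbm19 and Snrpa). Rbm43, which fell, also held an E box. By gene, an E box stood in 13 of 88 tested members and 1140 of 9401 tested genes. The ETS site stood in 7 of 28 members that rose, 27 of 88 tested members and 2024 of 9401 tested genes. In the same sets, the CCAAT box stood in 15, 45 and 4084 genes and the YY1 site in 4, 17 and 997. Whether any motif goes with the rise was not tested. ETS sites stood in 27.8% of the members' windows, 18.3% of those of tested genes and 8.86% of all windows, and YY1 sites in 14.8%, 8.69% and 6.05%. NRF1 sites (0.870%, 2.15% and 0.971%) and cyclic AMP response elements (1.74%, 3.11% and 1.79%) were rare in every set. These are counts of letters in a window, and no factor was measured at these sites.

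Among the other hnRNP genes, 5 rose by small amounts and 1 fell. With Hnrnpa1, 6 of 20 tested Hnrnp genes rose and 1 fell (30.0% and 5.00%, beside 18.9% and 20.1% of all genes). Hnrnpk, a poly(C)-binding hnRNP and the member with the most counts, had 1688, 1619 and 1601 CPM in Vsir-/- and 1358, 1381 and 1387 CPM in WT libraries, without overlap (log2 fold change 0.25 ± 0.07 SE, adjusted p = 0.0189). Hnrnph2, a reader of G-rich runs, had 211, 177 and 183 CPM in Vsir-/- and 142, 131 and 158 CPM in WT libraries (0.40 ± 0.10, adjusted p = 0.0101). Hnrnpc, which binds U-rich tracts in introns, had 419, 472 and 448 CPM in Vsir-/- and 368, 348 and 365 CPM in WT libraries (0.31 ± 0.08, adjusted p = 0.0113). Hnrnpab and Hnrnpm, chosen after their values were seen, also rose, with log2 fold changes of 0.30 and 0.24 (adjusted p = 0.0164 and 0.0229). The genotypes did not overlap in any of the 5 genes. Leaving out WT replicate 1 or Vsir-/- replicate 1 ended the calls of Hnrnpk (adjusted p up to 0.0950) and Hnrnpm (up to 0.116), and leaving out Vsir-/- replicate 2 or WT replicate 2 that of Hnrnpab (up to 0.0600), whereas those of Hnrnpc and Hnrnph2 stood in all 6 fits.

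Hnrnpr was the hnRNP gene that fell. It had 130, 128 and 128 CPM in Vsir-/- libraries, against 151, 152 and 175 CPM in WT libraries (log2 fold change -0.31 ± 0.09, adjusted p = 0.0175), and its call ended without Vsir-/- replicate 2 or WT replicate 3 (adjusted p up to 0.0684). Its close relative Syncrip, also known as hnRNP Q and named without the Hnrnp prefix, had 268, 250 and 239 CPM in Vsir-/- and 178, 180 and 197 CPM in WT libraries (log2 fold change 0.45, adjusted p = 0.00199). Both pairs of genotypes were separate, in opposite directions. Hnrnpll, which silences variable exons of the CD45 gene Ptprc in activated lymphocytes, had 138, 113 and 123 CPM in Vsir-/- and 145, 145 and 146 CPM in WT libraries. All Vsir-/- values were the lower ones, but the difference did not pass (-0.22, 95% interval -0.43 to -0.02, adjusted p = 0.0827), whereas it passed without Vsir-/- replicate 1 (adjusted p = 0.0389), with limma voom (0.0425) and with an offset for transcript length (0.0328). Counts per gene hold no information on which Ptprc exons were used.

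**Figure D2:**
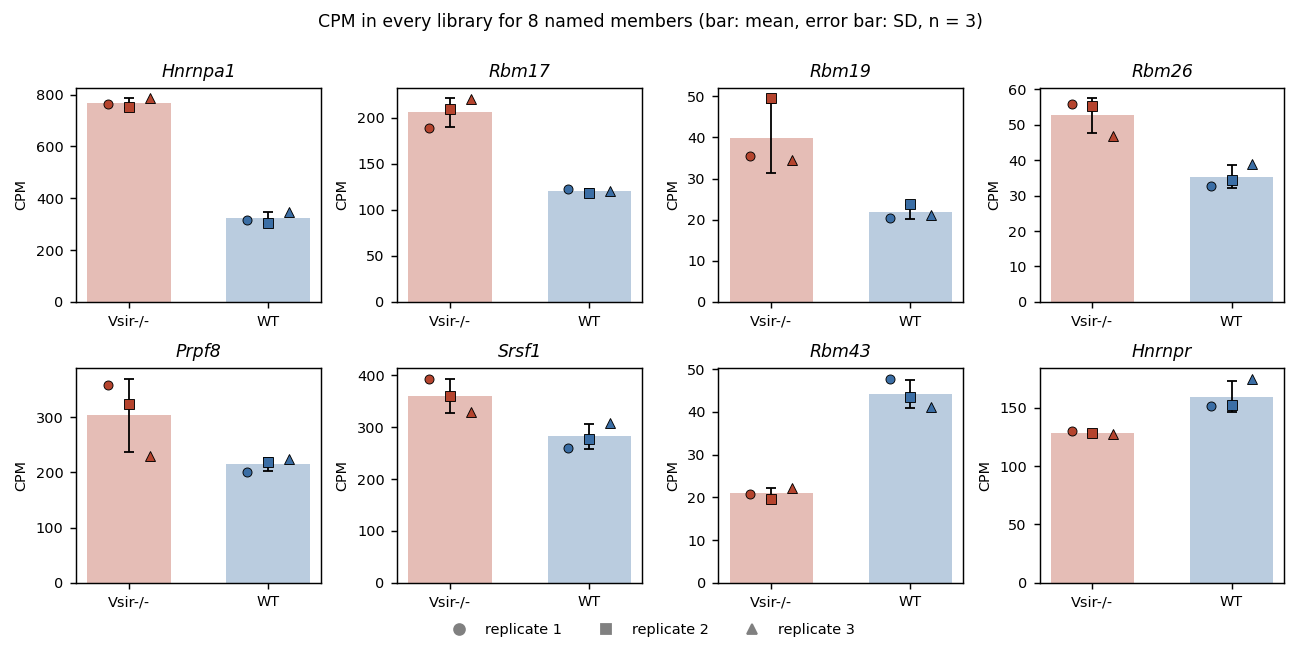
CPM in each of the 3 Vsir-/- and 3 WT libraries for Hnrnpa1, Rbm17, Rbm19, Rbm26, Prpf8, Srsf1, Rbm43 and Hnrnpr; bars are means, error bars SD, and symbols replicates. In the Prpf8 panel Vsir-/- replicate 3 (229 CPM) sits just above the WT libraries (200.3 to 224 CPM), whereas in the Hnrnpa1, Rbm17 and Rbm43 panels the genotypes lie far apart.

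SR proteins bind purine-rich and other exonic enhancers and recruit the early spliceosome. Of the 11 Srsf genes, 3 rose and none fell (27.3% and 0%, beside 18.9% and 20.1% of all genes). Their median log2 fold change was 0.10. Srsf1, the founding member, had 394, 360 and 329 CPM in Vsir-/- and 261, 277 and 308 CPM in WT libraries (0.35 ± 0.10 SE, adjusted p = 0.0149). Srsf9, its nearest paralogue, had 141, 161 and 162 CPM in Vsir-/- and 123, 136 and 115 CPM in WT libraries (0.31 ± 0.10, adjusted p = 0.0281). These 2 relatives thus moved together, while the relatives of Srsf6 did not move with it. Srsf6 itself had 282, 284 and 277 CPM in Vsir-/- and 241, 231 and 247 CPM in WT libraries (0.23 ± 0.08, adjusted p = 0.0342), against -0.13 for Srsf4 (adjusted p = 0.264) and -0.03 for Srsf5 (adjusted p = 0.812).

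The most counted SR gene, Srsf3, had 567, 549 and 632 CPM in Vsir-/- and 552, 564 and 517 CPM in WT libraries, with overlap (0.10, 95% interval -0.09 to 0.29, adjusted p = 0.393). Srsf2 had 473, 475 and 487 CPM in Vsir-/- and 473, 444 and 460 CPM in WT libraries (0.06, 95% interval -0.10 to 0.23, adjusted p = 0.559). Its highest WT and lowest Vsir-/- libraries nearly coincided. The Srsf calls rested on single libraries: 1 was left without Vsir-/- replicate 1 or 2 and 0 without WT replicate 1.

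Genes of the early spliceosome were considered by the particle their product belongs to. Of 5 U1 snRNP genes, 3 rose and none fell, where 18.9% of all tested genes rose and 20.1% fell. Snrpa, the A protein of U1, which holds a stem-loop of its RNA, had 158, 165 and 186 CPM in Vsir-/- and 124, 147 and 123 CPM in WT libraries (log2 fold change 0.37 ± 0.10 SE, adjusted p = 0.0156). Prpf40b, a U1-associated protein chosen after its values were seen, gave 0.98 (adjusted p = 0.00448). It was scarce, with 4.95, 5.59 and 7.16 CPM in Vsir-/- and 3.38, 3.15 and 2.39 CPM in WT libraries, yet the genotypes did not overlap. Snrpc, the C protein of U1, and Prpf39 gave 0.15 and 0.20 and did not pass (adjusted p = 0.393 and 0.304). Without WT replicate 1, only Prpf40b of the 5 was called.

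Of 11 genes of the U2 snRNP and its branch-point complexes, 5 rose and none fell, with a median of 0.20. These are 45.5% and 0%, beside 18.9% and 20.1% of all genes. Snrpa1, the A′ protein of U2, had 142, 164 and 167 CPM in Vsir-/- and 119, 126 and 102 CPM in WT libraries (0.45 ± 0.11 SE, adjusted p = 0.00675), and its call stood with any library left out. Its partner on U2 RNA, Snrpb2, gave 0.20 (adjusted p = 0.252). The other 4 belong to the SF3A and SF3B complexes, which clamp U2 on the branch point.

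Sf3a2 had 84.1, 103 and 90.3 CPM in Vsir-/- and 60.8, 79.9 and 71.0 CPM in WT libraries (0.39 ± 0.12 SE, adjusted p = 0.0253). Sf3a1 had 232, 238 and 206 CPM in Vsir-/- and 165, 168 and 195 CPM in WT libraries (0.36 ± 0.10, adjusted p = 0.0139). Sf3b4 had 207, 209 and 221 CPM in Vsir-/- and 166, 184 and 156 CPM in WT libraries (0.33 ± 0.09, adjusted p = 0.0136). The genotypes were separate in each of these genes. Sf3b3, chosen after its values were seen, also passed (0.35, adjusted p = 0.0397), although its Vsir-/- replicate 3, at 386 CPM, lay below WT replicate 3, at 407 CPM. Sf3b1, the subunit that contacts the branch point, had the most counts of the Sf3 genes, with 578, 559 and 508 CPM in Vsir-/- and 477, 481 and 505 CPM in WT libraries. All Vsir-/- values were above all WT values, but the difference did not pass (0.17, 95% interval -0.01 to 0.35, adjusted p = 0.128), whereas it passed without Vsir-/- replicate 3 (adjusted p = 0.0428) and with limma voom (0.0355). Of the 4 Sf3 calls, 1 was left without Vsir-/- replicate 2, 2 without WT replicate 2 and 0 without WT replicate 1.

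U2AF, the dimer that reads the polypyrimidine tract and the AG of the 3′ splice site, gave no call in 3 genes by edgeR or DESeq2, with 1 of them, U2af2, at an unadjusted p under 0.05 in edgeR. U2af2 had 140, 167 and 171 CPM in Vsir-/- and 117, 149 and 130 CPM in WT libraries (0.27, 95% interval 0.02 to 0.52, adjusted p = 0.0882). It passed without Vsir-/- replicate 1 (adjusted p = 0.0398), without WT replicate 2 (adjusted p = 0.0359), with limma voom (0.0331) and with an offset for transcript length (0.0377). U2af1 had 120, 151 and 192 CPM in Vsir-/- and 126, 154 and 116 CPM in WT libraries (0.22, 95% interval -0.13 to 0.58, adjusted p = 0.301). The spread among Vsir-/- libraries of U2af1 exceeded the difference between genotypes.

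Sm proteins form the ring around each snRNA of the major particles other than U6. Of 8 Sm core genes, 2 rose and none fell (25.0% and 0%, beside 18.9% and 20.1% of all genes). Snrpf had 84.0, 82.7 and 117 CPM in Vsir-/- and 70.9, 75.2 and 62.2 CPM in WT libraries (0.45 ± 0.14 SE, adjusted p = 0.0282), and Snrpd2, chosen after its values were seen, gave 0.38 (adjusted p = 0.0469) with overlapping genotypes. Snrpf overlaps Ccdc38, which had 2 to 10 counts in every library, and 89.5% of its windows are shared. Snrpb, the most counted of the family, had 430.1, 450.4 and 519 CPM in Vsir-/- and 438, 490 and 405 CPM in WT libraries (0.07, adjusted p = 0.620). Its paralogue Snrpn, an imprinted gene best known from neurons, had 4.18, 4.44 and 4.11 CPM in Vsir-/- and 4.70, 4.78 and 3.73 CPM in WT libraries (-0.06, adjusted p = 0.829). Both Sm calls were lost without Vsir-/- replicate 3, without WT replicate 1 or without WT replicate 3, and of the 4 calls in the whole Snrp family 2, 1 and 2 were left in these fits.

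The Snrp genes varied together from library to library, apart from genotype. Of the 13, 12 were highest in Vsir-/- replicate 3 among the Vsir-/- libraries, as were 7 of the 8 Sm core genes, and their sum was 2009 CPM there, against 1562 and 1634 CPM in Vsir-/- replicates 1 and 2. In WT libraries the sum was 1544, 1641 and 1336 CPM for replicates 1, 2 and 3, so the Vsir-/- and WT ranges overlapped. These genes have short transcripts. Over the 103 members with a transcript length, the deviation of a library from its genotype's mean ran with length at a Spearman rho of 0.548, 0.305 and -0.692 in Vsir-/- replicates 1, 2 and 3, and of -0.446, -0.458 and 0.589 in WT replicates 1, 2 and 3. Over all 8288 genes with at least 10 CPM the values were 0.547, 0.282 and -0.663 for Vsir-/- and -0.347, -0.531 and 0.621 for WT libraries. The fold change between genotypes itself had a rho of 0.06 with length over the members. These are descriptions across genes, which are not independent. When each library's trend on length was taken out by an offset, an alternative added after seeing the data, 36 members were higher, including all 31 called before, and 5 lower, and the common dispersion was 0.0107 against 0.0149.

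**Figure D3:**
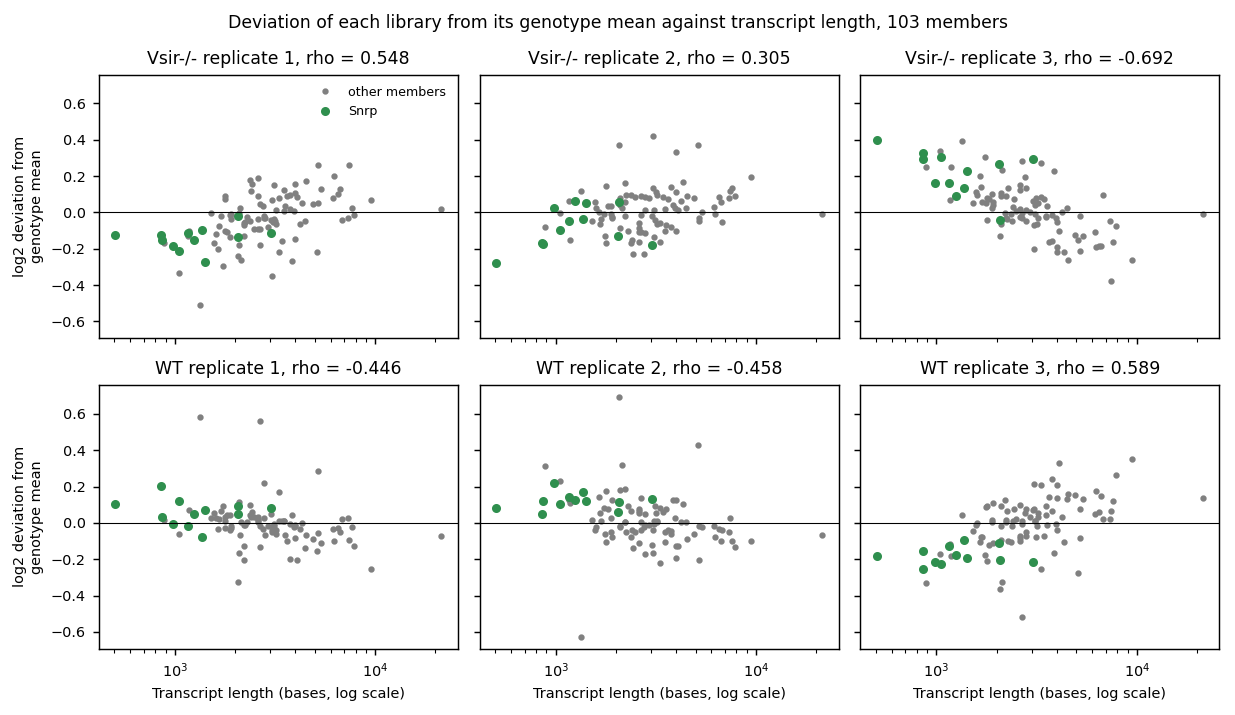
Log2 deviation of each library from the mean of its genotype against transcript length (log axis) for 103 members, with Snrp genes in green. Points slope downward in Vsir-/- replicate 3 (rho -0.692) and upward in WT replicate 3 (rho 0.589), with the short Snrp genes at the ends of the slopes.

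Prpf genes of the catalytic tri-snRNP mostly showed higher counts. Of these 5 genes, 4 rose and none fell (80.0% and 0%, beside 18.9% and 20.1% of all genes). The 4 had log2 fold changes of 0.31 to 0.50. The count that rose was 1 without WT replicate 1 and 2 without Vsir-/- replicate 1 or 2. It was 1 with replicates 1 and 2 summed. Tri-snRNP proteins without a Prpf name are not part of these counts. Prpf8, the large U5 protein that cradles the catalytic centre, had 358, 324 and 229 CPM in Vsir-/- and 200.3, 218 and 224 CPM in WT libraries (0.50 ± 0.14 SE, adjusted p = 0.0171). Vsir-/- replicate 3 stood close to the WT libraries, and this gene has a transcript of 7442 bases. Prpf31, which bridges U4/U6 to U5, had 242, 241 and 262 CPM in Vsir-/- and 187, 203 and 180.0 CPM in WT libraries (0.39 ± 0.08, adjusted p = 0.00443), and its call stood with any library left out.

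Prpf3, a U4/U6 protein, had 64.9, 72.3 and 68.6 CPM in Vsir-/- and 53.0, 53.4 and 54.9 CPM in WT libraries (0.35 ± 0.09 SE, adjusted p = 0.00996). Prpf6, which links the U5 and U4/U6 particles, had 117, 123 and 97.5 CPM in Vsir-/- and 88.4, 88.2 and 95.7 CPM in WT libraries (0.31 ± 0.10, adjusted p = 0.0352). The genotypes of both were separate, with Vsir-/- replicate 3 of Prpf6 close to WT replicate 3. Prpf4, the partner of Prpf3, gave 0.06 (adjusted p = 0.633). Of the remaining Prpf genes, Prpf38a, needed for activation of the spliceosome and chosen after its values were seen, rose (0.27, adjusted p = 0.0250), whereas the ubiquitin ligase Prpf19 (log2 fold change 0.002, adjusted p = 0.993), the kinase Prpf4b (0.09, adjusted p = 0.588) and the late factor Prpf18 (-0.13, adjusted p = 0.314) did not pass. Of 13 Prpf genes 7 rose and none fell (53.8% and 0%, beside 18.9% and 20.1% of all genes), with a median of 0.27. Without WT replicate 1 there were 2 such calls (Prpf31 and Prpf40b) and without Vsir-/- replicate 1 there were 4.

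The Rbm family held the widest range of changes, with 7 genes higher and 3 lower of 38 tested (18.4% and 7.89%, beside 18.9% and 20.1% of all genes; median 0.12). Rbm17, also called SPF45, binds U2-associated proteins and helps choose alternative 3′ splice sites. It had 189, 209 and 220.2 CPM in Vsir-/- and 123, 118 and 120.2 CPM in WT libraries (log2 fold change 0.78 ± 0.09 SE, adjusted p = 6.44e-05). The genotypes were far apart beside the spread within them.

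Several of the Rbm genes that rose act elsewhere than on introns. Rbm19, a nucleolar factor of ribosomal RNA processing, had 35.5, 49.7 and 34.4 CPM in Vsir-/- and 20.5, 23.9 and 21.2 CPM in WT libraries (0.86 ± 0.15 SE, adjusted p = 0.00121). Rbm26, known in human cells from nuclear RNA decay, had 55.8, 55.1 and 46.8 CPM in Vsir-/- and 32.8, 34.3 and 39.0 CPM in WT libraries (0.57 ± 0.11, adjusted p = 0.00235). The genotypes were separate in both, and both calls stood with any library left out. The following were chosen after their values were seen. Rbm8a, the Y14 subunit of the exon junction complex, had 158, 161 and 186 CPM in Vsir-/- and 122, 125 and 111.5 CPM in WT libraries (0.49, adjusted p = 0.00217). The nucleolar proteins Rbm28 and Rbm34 gave 0.46 (adjusted p = 0.00374) and 0.38 (adjusted p = 0.0163), the second of which did not pass without Vsir-/- replicate 2 or WT replicate 1. Rbmxl1, an intronless copy of Rbmx, gave 0.24 (adjusted p = 0.0400), shares 79.6% of its windows with other genes and lost its call in all 6 fits with a library left out, while Rbmx gave -0.18 (adjusted p = 0.160).

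Of the Rbm genes that fell, Rbm43 changed the most among those with at least 10 CPM. It had 20.8, 19.6 and 22.3 CPM in Vsir-/- libraries, against 47.8, 43.6 and 41.2 CPM in WT libraries (log2 fold change -1.08 ± 0.11 SE, adjusted p = 3.38e-05). The genotypes did not come near each other, and none of its windows is shared with another gene. Rbm47, a cofactor of APOBEC1 in RNA editing and a regulator of splicing, had 3, 1 and 0 counts in Vsir-/- libraries, against 18, 19 and 13 counts in WT libraries (adjusted p = 0.00396). This gene, chosen after its values were seen, is best known from epithelium. The epithelial marker Epcam had 4.05, 4.50 and 5.41 CPM in Vsir-/- and 19.4, 19.7 and 21.8 CPM in WT libraries. Of the other epithelial markers, Scgb1a1 had 0 CPM in Vsir-/- and 2.25, 1.59 and 0 CPM in WT libraries. Cdh1 overlapped, with 0.514, 0.243 and 0.187 CPM in Vsir-/- and 0.376, 0.623 and 0 CPM in WT libraries. Krt8 (at most 0.0693 CPM) and Sftpc (at most 0.193 CPM) were near 0 in every library. Whether the Rbm47 counts come from ILC2s was not tested. Rbm4b, also chosen so, gave -0.47 (adjusted p = 0.0145) and did not pass without Vsir-/- replicate 2 (adjusted p = 0.0723), and its paralogue Rbm4 gave 0.06 (adjusted p = 0.664).

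Well-known Rbm genes were among those that did not pass. Rbm3, a cold-induced RNA-binding protein and the most counted of the family, had 467, 436 and 519 CPM in Vsir-/- and 540, 548 and 504 CPM in WT libraries (-0.16, 95% interval -0.36 to 0.03, adjusted p = 0.172), although limma voom called it lower (-0.21, adjusted p = 0.0411). Cirbp, the other cold-induced relative and not an Rbm gene by name, had 14.4, 14.95 and 17.4 CPM in Vsir-/- and 28.7, 28.9 and 25.8 CPM in WT libraries, and it fell (-0.84, adjusted p = 0.000369). Rbm39, a cofactor of U2AF, had 256, 264 and 263 CPM in Vsir-/- and 239.5, 249 and 264 CPM in WT libraries (0.06, 95% interval -0.12 to 0.23, adjusted p = 0.603). Its genotypes overlapped.

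Genes listed as relatives were compared in direction over 30 pairs. Some genes stood in several pairs, and some, such as Syncrip, lie outside the name rule. In 17 pairs both genes had a fold change of the same sign and in 13 of opposite sign. For comparison, 73.8% of the members had a value above 0, and 38.9% of all tested genes were called. Whether relatives moved together more than other genes was not tested. Both genes were called in 3 pairs, among which Srsf1 and Srsf9 rose together and Hnrnpr fell while Syncrip rose. In 11 further pairs 1 gene was called, and 6 of these had opposite signs, such as Hnrnpa1 with Hnrnpa2b1 and Rbm4b with Rbm4. Among the 4 pseudogene and antisense members tested, none was called, and their log2 fold changes lay between -0.54 and -0.20.

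Chromosome 10, which carries Vsir, holds 5 members, and the name of the deleted line records B6N and 129S5 origins. Hnrnph3 lies nearest, 2.67 Mb from Vsir, and gave a log2 fold change of 0.04 (adjusted p = 0.794). Snrpd3 (15.2 Mb, 0.29, adjusted p = 0.125), Sf3a2 (20.5 Mb, 0.39), Snrpf (33.2 Mb, 0.45) and Sf3b5 (-47.3 Mb, on the other side, -0.01, adjusted p = 0.950) lie farther off. Effects of the deletion and of strain DNA near it cannot be told apart in these libraries.

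Splicing genes outside the name rule were read from lists for comparison. Of 163 tested, 40 rose and 5 fell (24.5% and 3.07%, against 18.9% and 20.1% of all genes), with a median log2 fold change of 0.12. Without WT replicate 1, 24 rose, and the count that fell was 3 without Vsir-/- replicate 2 and 9 without WT replicate 3. The split by list was uneven, and the genes that build snRNPs had the largest share.

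**Figure D4:**
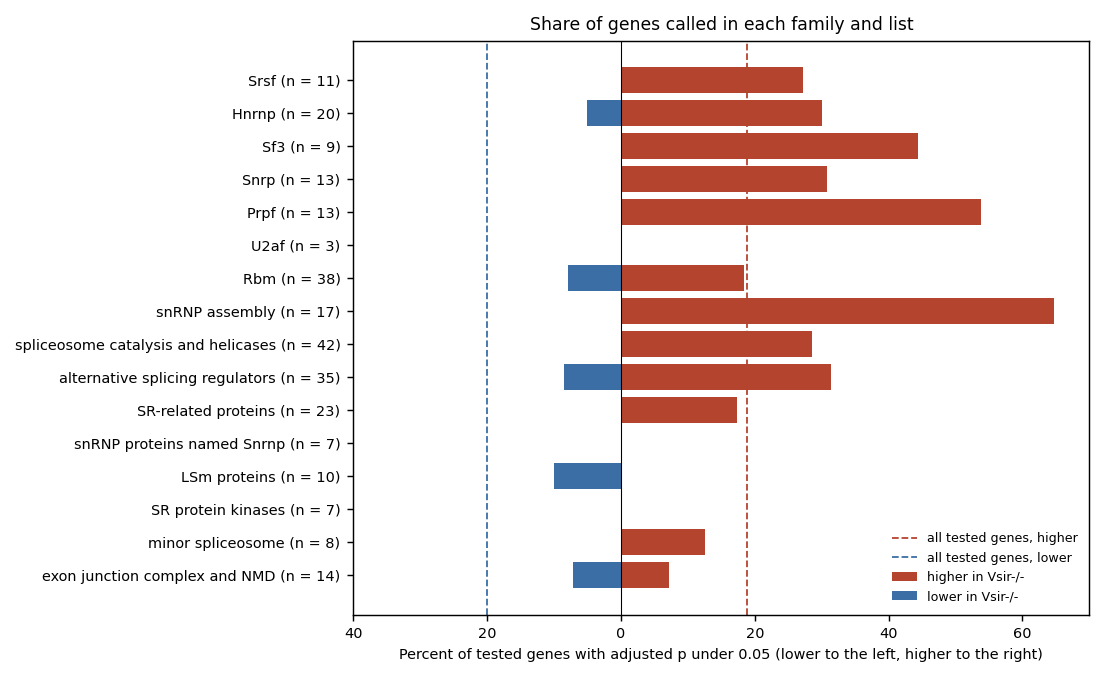
Percent of tested genes called higher (right) and lower (left) in Vsir-/- cells for the 7 families and the lists of other splicing genes; dashed lines mark 18.9% and 20.1%, the shares of all tested genes. The bar of snRNP assembly reaches 64.7%, that of Prpf 53.8%, and no bar of lower genes passes the dashed line on the left.

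Before a snRNP can work, its Sm proteins are methylated by the PRMT5 methylosome and loaded on the snRNA by the SMN complex. Of 17 genes of this assembly line, 11 rose and none fell (64.7% and 0%, beside 18.9% and 20.1% of all genes), with a median of 0.43. In each fit with a library left out 10 or 11 were higher, and 9 were with replicates 1 and 2 summed. Without libraries of the label suffix S0, which leaves 1 WT library, the median was 0.51, and fewer of the 17 were higher than in the other fits. Wdr77, the methylosome subunit that holds PRMT5, had 165, 149 and 169 CPM in Vsir-/- and 80.7, 87.0 and 78.7 CPM in WT libraries (0.97 ± 0.09 SE, adjusted p = 1.89e-05). Prmt5 had 191, 215 and 201 CPM in Vsir-/- and 112, 120 and 109.9 CPM in WT libraries (0.83 ± 0.09, adjusted p = 3.88e-05). Gemin5, which recognises the snRNA for the SMN complex, had 124, 125 and 97.1 CPM in Vsir-/- and 66.4, 58.7 and 66.1 CPM in WT libraries (0.86 ± 0.11, adjusted p = 0.000214). In these 3 genes all Vsir-/- values were above all WT values.

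The remaining genes of the list that rose, named after their values were seen, were Gemin6 (0.69), Gemin4 (0.67), Clns1a (0.56), Smn1 (0.51), Strap (0.45), Ddx20 (0.43), Phax (0.43) and Coil (0.33, lost in 5 of 6 fits). Phax exports new snRNAs from the nucleus and Coil scaffolds the Cajal body, in which snRNPs mature. Snupn, the import adaptor of finished snRNPs, and Gemin7 had negative fold changes and were not called by edgeR (-0.31 and -0.32, adjusted p = 0.0831 and 0.0704). Without Vsir-/- replicate 3 and without WT replicate 3, 1 and 2 genes of the list were lower. With limma voom 2 were lower, and with the length offset 2. All 17 genes of the assembly list, called or not, had a median of 0.43, while the 8 Sm core genes had a median of 0.13. These lists share the same libraries and no test of this difference was made.

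**Figure D5:**
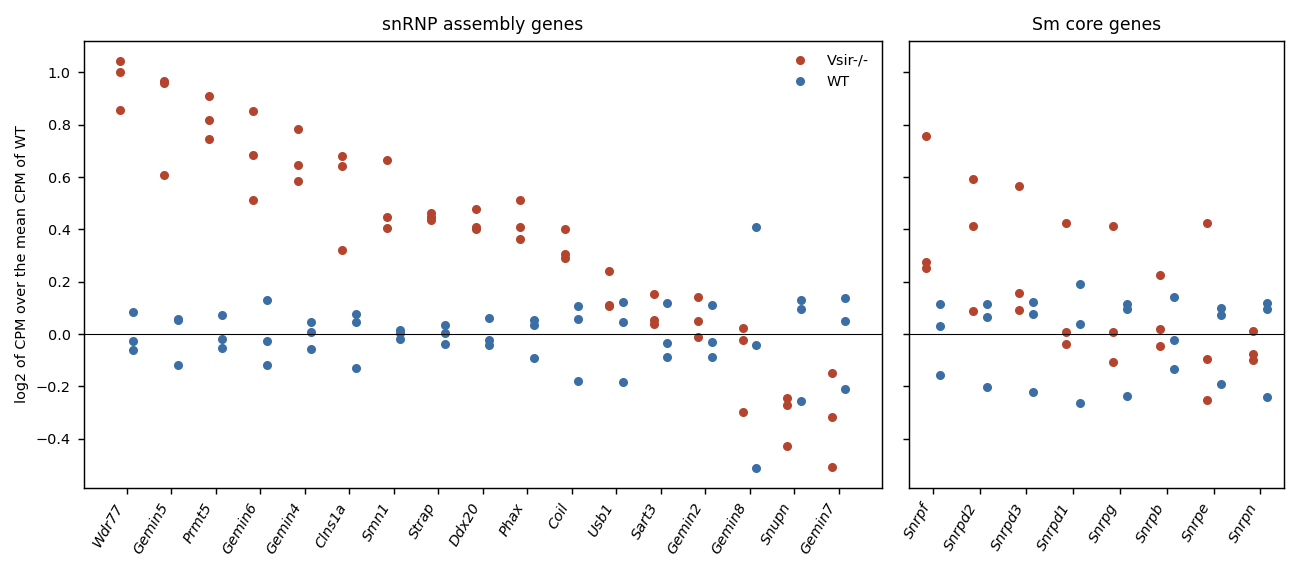
Log2 of each library's CPM over the WT mean for 17 snRNP assembly genes (left) and 8 Sm core genes (right). For the 11 assembly genes from Wdr77 to Coil all Vsir-/- points lie above all WT points, whereas among Sm core genes only Snrpf shows this.

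Among 42 further spliceosome proteins, most of them of the catalytic core and the helicases, 12 rose and none fell. These are 28.6% and 0%, beside 18.9% and 20.1% of all genes. The count that rose was 3 without WT replicate 1 and 7 without WT replicate 2. Snu13, which binds the U4 snRNA and also box C/D small nucleolar RNAs, had 394, 348 and 466 CPM in Vsir-/- and 245, 260 and 220.2 CPM in WT libraries (0.74 ± 0.11 SE, adjusted p = 0.000568). Eftud2, the U5 GTPase that partners Prpf8, gave 0.39 (adjusted p = 0.00300), and Usp39, a tri-snRNP protein, gave 0.41 (adjusted p = 0.00441). The genotypes of all 3 were separate. Snrnp200, the U5 helicase, had 356, 361 and 242 CPM in Vsir-/- and 238.4, 238 and 292 CPM in WT libraries (0.32, adjusted p = 0.115) and passed without Vsir-/- replicate 3 (adjusted p = 0.00541), with limma voom (0.0178) and with the length offset (0.0262). None of the 7 Snrnp genes was called by edgeR, with 0 at an unadjusted p under 0.05, and DESeq2 called 0 while limma voom called 1 higher and 1 lower. Of 10 LSm genes, whose ring sits on U6 and on decaying mRNA, 1 fell (10.0%, beside 20.1% of all genes). This was Lsm11, a U7 snRNP protein of histone mRNA processing (-0.47, adjusted p = 0.01001).

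Of 35 regulators of alternative splicing outside the name rule, 11 rose and 3 fell (31.4% and 8.57%, beside 18.9% and 20.1% of all genes). Rbfox2, which reads UGCAUG, had 10.6, 11.6 and 7.84 CPM in Vsir-/- and 2.94, 3.91 and 2.91 CPM in WT libraries (1.60 ± 0.20 SE, adjusted p = 0.000157). This low-count gene had the largest fold change on the lists. Celf2, a regulator induced in T cell activation, had 106, 102 and 109 CPM in Vsir-/- and 156, 153 and 164 CPM in WT libraries, and it fell (-0.57 ± 0.08, adjusted p = 0.000327). The list lost calls with single libraries: 7 rose without Vsir-/- replicate 1, 6 without WT replicate 1 and 7 without WT replicate 2.

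SR-related proteins gave 4 higher of 23, among them Zranb2 (0.53, adjusted p = 0.00343), Bclaf1 (0.50, adjusted p = 0.00383) and the U1-associated Luc7l (0.41, adjusted p = 0.00400). The kinases that phosphorylate SR proteins gave none of 7 by edgeR, DESeq2 or limma voom, with 0 at an unadjusted p under 0.05 in edgeR, and log2 fold changes between -0.24 and 0.13. Minor spliceosome genes gave 1 of 8, Zrsr2 (0.37, adjusted p = 0.0193), which did not pass without WT replicate 1 (adjusted p = 0.0932). In the exon junction complex and nonsense-mediated decay, 1 gene of 14 rose, Smg8 (0.48, adjusted p = 0.00667), and 1 fell, Smg6 (-0.32, adjusted p = 0.0350), whose call was lost in 5 of 6 fits with a library left out. The count of higher genes in this list was 4 without Vsir-/- replicate 3, 2 without WT replicate 2 or 3, 2 with DESeq2, 5 with limma voom and 3 with the length offset. The share that rose was 17.4%, 0%, 12.5% and 7.14% in these lists, beside 18.9% of all genes.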

How the data were processed

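ILC2s were sorted by flow cytometry, and libraries were made with the SMARTer v3 kit and sequenced on a NextSeq sequencer, 3 per genotype. The submitters' processing notes name Partek 10.0, STAR 2.7.8, DESeq2 and mm10, without their roles; the annotation, strand and treatment of reads with several matches are not given in the sources used here. The authors deposited estimated counts per gene, 1 column per library, of which 60.8% to 69.5% lay within 0.01 of a whole number. They were rounded to whole numbers, since the planned test takes counts.

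Genes were kept with edgeR's filter (minimum count 10, minimum total 15), which left 13166 of 15212. TMM factors lay between 0.989 and 1.02, and CPM were scaled by them. Genotypes were compared over all 6 libraries with edgeR 4.0.16 (R 4.3.3) by the quasi-likelihood test, with Benjamini-Hochberg adjustment over all tested genes and a threshold of 0.05. The study's methods do not state the design for these libraries. Replicates of a genotype differed by more than sampling noise (chi-square per degree of freedom 10.2 to 26.8), so none was merged. The pairs that share a label number were the closest in each genotype (12.2 in Vsir-/- and 10.2 in WT), and whether they are preparations of the same cells is not stated. Intervals cover 95%, and depths of 15680892 to 29197999 counts set the precision.

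Members and lists were chosen with earlier results of these data known. Genes were named by rule: in each family up to 4 called members with the largest change, at least 10 CPM and no overlap, the member with the most counts, and 14 named for their role; in each list the 3 with the smallest p. Other genes were named after their values were seen. Levels between genes were compared as CPM per kilobase of the longest principal transcript (GENCODE M21). Promoters came from RefSeq. The values of 1 member, which is included in the counts, are not reported here. Alternatives were RLE factors, library totals, DESeq2 1.42.0, limma 3.58.1 voom, other filters, a replicate block, thinning, summed or omitted libraries, other thresholds and a length offset. The library totals and the length offset were chosen after seeing the data.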

Additional observations from a re-analysis of the deposited data

How the results depend on the processing

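No called gene among those named by rule changed direction under the alternatives run. The direction of the other called genes was not compared across them. The members gave 31 higher and 4 lower calls and the other splicing genes 40 and 5, and these counts stayed within 1.5 times under RLE factors, library totals, DESeq2, filters on low counts and thinning. With limma voom, 8 other splicing genes were lower, and with the length offset 9. With replicates 1 and 2 summed, 12 members were higher, and 20 other splicing genes were higher and 3 lower. Without libraries of the label suffix S0, which leaves 1 WT library that is assumed to vary like the Vsir-/- libraries, members gave 6 higher and 2 lower calls and other splicing genes 13 and 2. An adjusted p threshold of 0.01 gave 10 and 2 for members and 23 and 2 for other splicing genes, and a fold change over 1.5 gave 4 and 2, and 9 and 1. The share of members higher was then 9.35% and 3.74%, against 12.0% and 10.1% of all genes. With a library left out, the counts ranged from 12 to 33 for members higher, 2 to 6 for members lower, 24 to 47 for other splicing genes higher and 3 to 9 for other splicing genes lower. The cause of these shifts was not tested.

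With the replicate number as a block, 16 members were higher (14.95%, against 14.6% of all genes), and 11 of 59 named genes lost their call. The numbers did not pair the libraries: over 8567 genes the deviations of same-numbered libraries correlated at -0.0956, 0.197 and -0.475 for replicates 1, 2 and 3, and only replicate 2 correlated best with its own number. Scaling moved the median log2 fold change of all genes between -0.04 and -0.0005.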
